A study of Homo sapiens with 18 samples.

Results

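The authors' table of gene starts held 13176 starts of RefSeq transcripts, sorted into 4 clusters, and its name and its deepTools group column tie the clusters to an ATAC-seq signal around each start. The starts that carry the labels cluster 2 and cluster 3 are described here and kept apart. Cluster 2 held 2386 starts and cluster 3 held 2057, so that together they made up 4443 of the 13176 starts. Cluster 1 held 2581 starts and cluster 4 held 6152. Because the clusters were made from ATAC signal, the position of ATAC peaks around these starts is given as a description with no test, while the RNA and the GFP-UBR7 peaks were not used to make the clusters.

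ATAC-seq cuts DNA with a transposase wherever it is not wrapped or covered, so its peaks mark open chromatin. An active promoter is usually open over a stretch without nucleosomes, flanked upstream and downstream by positioned nucleosomes, and many human promoters fire in both directions. UBR7 is a nuclear protein with a UBR box and a PHD finger, named in the study's title as a chaperone of post-nucleosomal histone H3.

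All libraries came from HEK293T, a human embryonic kidney line that carries the SV40 large T antigen. The ATAC-seq libraries comprised 2 from parental cells and 2 from UBR7KO cells, in which UBR7 had been targeted with CRISPR-Cas9. For RNA-seq there were 3 parental libraries, 2 labelled UBR7KO1 and 1 labelled UBR7KO2, and for ChIP-seq with an anti-GFP antibody 1 library of cells with endogenously tagged GFP-UBR7, with its input. The labels do not say whether a knockout line was 1 clone, nor whether the libraries of a group came from separate cultures, so p-values measure only the spread between these libraries. The UBR7KO ATAC libraries carry in their labels the same code as the UBR7KO2 RNA library, and the line they came from is not otherwise stated.

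The RNA of UBR7 measured 55.0, 62.2 and 62.2 CPM (reads scaled to the size of the library) in parental cells. The UBR7KO1 libraries gave 27.0 and 26.3 CPM, below every parental library, and the library labelled UBR7KO2 gave 64.5 CPM, above them. The RNA level of UBR7 thus showed no loss in the library labelled UBR7KO2. RNA alone cannot decide whether those cells lack UBR7, so directions drawn from that library rest on its label. Markers of the HEK293 line were present for 6 of 6 genes and summed to between 173 and 406 CPM per library, while blood markers (2 of 5 genes listed) summed to between 1.90 and 3.37 CPM, fibroblast markers (4 of 5 listed) to between 7.95 and 22.8 CPM, and no keratinocyte marker (0 of 4) or hepatocyte marker (0 of 3) was listed. The 4 ATAC peak lists differed in size, with 10507 peaks in parental 1, 38529 in parental 2, 15310 in UBR7KO 1 and 45920 in UBR7KO 2. Parental 1 held the fewest peaks and stands apart in most values below, so values are also given without it.

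To show what kind of DNA lies at these starts, 6 promoters are printed, each the 250 bases before the RefSeq start of a gene described below, 5′ to 3′ along the gene, from RefSeq's table for GRCh38.p14. The RefSeq start may differ from the authors' start, whose coordinates are of the GRCh37 type. Capitals mark a GC box (GGGCGG or CCGCCC) or a CCAAT box (CCAAT or ATTGG) on either strand. In cluster 2, ACTL6B (chr7:100656449-100656698, minus strand) and ZNF22 (chr10:45000673-45000922, plus strand) are shown because their starts had peaks in both UBR7KO ATAC libraries and in neither parental one, and MRPL40 (chr22:19432295-19432544, plus strand) because its GFP-UBR7 peak had the highest score of the cluster. In cluster 3, CCNI2 (chr5:132747176-132747425, plus strand) is shown as a start with UBR7KO peaks only, JMJD4 (chr1:227735303-227735552, minus strand) for a high GFP-UBR7 score, and UBR7 (chr14:93207006-93207255, plus strand) as the targeted gene.
ACTL6B: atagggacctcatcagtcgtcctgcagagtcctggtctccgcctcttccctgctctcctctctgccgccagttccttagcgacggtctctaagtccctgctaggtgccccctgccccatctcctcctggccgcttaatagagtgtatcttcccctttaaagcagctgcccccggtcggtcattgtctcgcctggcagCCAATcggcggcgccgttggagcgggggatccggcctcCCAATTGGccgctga
ZNF22: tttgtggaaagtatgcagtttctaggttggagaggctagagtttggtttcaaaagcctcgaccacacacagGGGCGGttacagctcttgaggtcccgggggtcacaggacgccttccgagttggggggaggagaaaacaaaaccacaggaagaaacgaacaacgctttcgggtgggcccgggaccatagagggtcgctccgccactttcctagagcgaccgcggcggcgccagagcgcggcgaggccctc
MRPL40: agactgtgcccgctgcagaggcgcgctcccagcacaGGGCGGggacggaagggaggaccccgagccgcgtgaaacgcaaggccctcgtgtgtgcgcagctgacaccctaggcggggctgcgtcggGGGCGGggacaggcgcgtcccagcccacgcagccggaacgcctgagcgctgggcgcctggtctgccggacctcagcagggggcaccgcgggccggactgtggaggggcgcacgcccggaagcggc
CCNI2: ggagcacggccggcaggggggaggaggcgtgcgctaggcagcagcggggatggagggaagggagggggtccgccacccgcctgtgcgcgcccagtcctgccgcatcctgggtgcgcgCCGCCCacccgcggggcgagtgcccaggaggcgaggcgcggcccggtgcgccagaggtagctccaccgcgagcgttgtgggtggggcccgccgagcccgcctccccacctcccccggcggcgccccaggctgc
JMJD4: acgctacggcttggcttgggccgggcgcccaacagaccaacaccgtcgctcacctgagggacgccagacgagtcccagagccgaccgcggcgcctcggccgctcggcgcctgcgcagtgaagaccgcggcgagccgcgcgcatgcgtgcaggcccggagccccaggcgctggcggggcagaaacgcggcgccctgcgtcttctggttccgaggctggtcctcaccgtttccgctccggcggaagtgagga
UBR7: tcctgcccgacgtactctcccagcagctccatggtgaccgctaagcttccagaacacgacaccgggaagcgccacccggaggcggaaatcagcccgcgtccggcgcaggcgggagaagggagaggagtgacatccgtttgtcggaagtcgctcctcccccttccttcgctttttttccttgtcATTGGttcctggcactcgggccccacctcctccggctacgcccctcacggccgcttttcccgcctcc

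These windows ranged in C+G content from 59.6% at ZNF22 to 79.6% at CCNI2. ACTL6B held 3 matches to the CCAAT box, of which the last 2 overlap, and no GC box. MRPL40 held 2 GC boxes, the nearer beginning 125 bases before the RefSeq start, and ZNF22 and CCNI2 held 1 each, beginning 179 and 133 bases before it. JMJD4 held neither motif, and UBR7 held a single CCAAT box.

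Over windows of 300 bases (250 before and 50 after the RefSeq start), matched by symbol for 1839 cluster 2 genes and 1620 cluster 3 genes, the 2 clusters had nearly the same composition. The median C+G content was 66.0% in cluster 2 and 66.7% in cluster 3, against 66.0% for 9141 genes over all starts of the table and 58.3% for all 27305 RefSeq promoters. A GC box was present in 72.6% and 74.2% of the windows, against 72.7% over all starts and 44.6% over all RefSeq promoters. Both clusters thus held the GC-rich windows of the table as a whole. A CCAAT box was present in 40.9% of cluster 2 and 36.1% of cluster 3 windows, against 38.5% over all starts and 35.7% over all RefSeq promoters. A TATA box, searched as TATAAA or TTTATA, was present in 5.33% and 3.58%, against 5.14% and 11.95%. The E-box CACGTG was present in 10.9% and 11.4%, against 10.4% and 7.43%. A match is a description of letters, not a bound site.

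A start that merges several transcripts carries no strand in the authors' table, and this bears on every statement about upstream and downstream. Cluster 2 held 685 such merged starts (28.7%) and cluster 3 held 745 (36.2%). Their direction was taken from the gene's strand in the RNA table or from RefSeq, which gave a direction to 2380 cluster 2 starts and 2051 cluster 3 starts in all. Among the merged starts with a direction, 260 of cluster 2 (38.3%) and 438 of cluster 3 (59.3%) lay on the minus strand, while among all merged starts with a direction 2070 lay on the plus strand and 2022 on the minus strand. Among starts of a single transcript, 50.3% of cluster 2 and 47.6% of cluster 3 lay on the minus strand. Of 7868 single-transcript starts with a gene in the RNA table, 7864 had the same strand in both tables.

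In cluster 2 the parental 1 peaks lay upstream of the start and the peaks of the other libraries reached farther downstream, and in cluster 3 the sides were exchanged. At cluster 2 starts the share of peak-covered bases within 1 kb that lay upstream was 65.1% in parental 1, 44.3% in parental 2, 39.6% in UBR7KO 1 and 41.4% in UBR7KO 2. At cluster 3 starts it was 43.4%, 53.1%, 58.4% and 54.1% in the same order. Both UBR7KO libraries lay below both parental libraries in cluster 2 and above both in cluster 3, although parental 2 lay nearer to the UBR7KO libraries than to parental 1. Over all starts with a direction the 4 shares were 52.9%, 49.3%, 50.4% and 48.7%, and at cluster 4 starts 51.4%, 49.8%, 52.3% and 49.8%.

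The mean of the UBR7KO libraries minus that of the parental libraries was -14.2 percentage points in cluster 2 and 7.98 points in cluster 3. Most of this came from parental 1. Without it the differences were -3.83 and 3.14 points, and within replicate number 2 alone they were -2.93 and 0.95 points, against -25.6 and 15.0 within replicate number 1. No test was run on these values, since the clusters were made from ATAC signal.

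**Figure D1:**
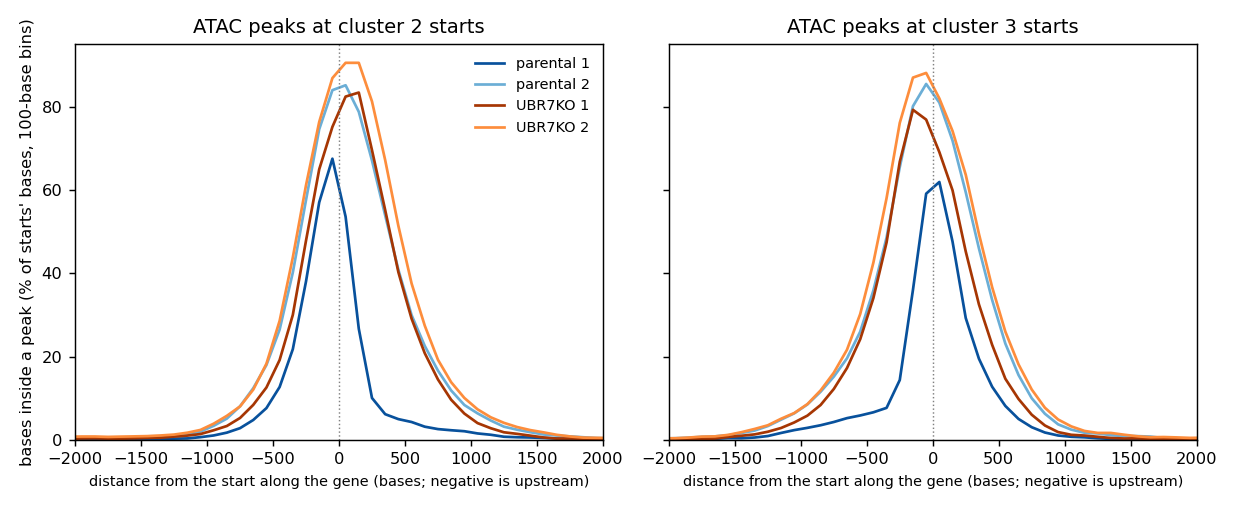
Share of bases inside an ATAC peak (percent, y axis) by distance from the start along the gene (bases, x axis, negative upstream, bins of 100 bases) at cluster 2 and cluster 3 starts, with 1 line per library. The parental 1 line is lower than the others and lies to the left of the start in cluster 2 and to the right in cluster 3, and the lines of the other 3 libraries lean the other way.

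Outside parental 1 nearly every start was in reach of a peak, and in each library the share was alike in both clusters. At least 1 base of a peak lay within 1 kb of 80.8%, 98.8%, 100% and 100% of cluster 2 starts in parental 1, parental 2, UBR7KO 1 and UBR7KO 2, and of 79.7%, 98.6%, 100% and 100% of cluster 3 starts. A peak covered the start itself at 64.1%, 85.8%, 78.9% and 89.5% of cluster 2 starts and at 64.1%, 84.5%, 73.0% and 85.5% of cluster 3 starts. Starts whose peaks lay on a single side showed the same mirror image. In cluster 2, peaks lay only downstream at 5.55%, 10.0%, 18.5% and 8.91% of starts and only upstream at 11.1%, 1.64%, 2.27% and 0.92%. In cluster 3, peaks lay only upstream at 9.17%, 11.3%, 23.0% and 11.8% of starts and only downstream at 6.14%, 1.32%, 3.56% and 1.41%. Over all starts with a direction, peaks lay only upstream at 12.5%, 7.53%, 11.4% and 6.58% and only downstream at 8.62%, 6.05%, 9.44% and 5.14%.

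The centre of the nearest peak moved accordingly. Its median position at cluster 2 starts was -69.5 bases in parental 1, 32 in parental 2, 80.25 in UBR7KO 1 and 69 in UBR7KO 2, where negative values lie upstream. At cluster 3 starts it was 23, -12, -63.5 and -28 bases. Among the starts that lay inside a peak in all 4 libraries (1470 of cluster 2 and 1253 of cluster 3), the far edge of the peak could be followed. In cluster 2 the downstream edge lay at a median of 119, 364, 365 and 421.5 bases from the start and the upstream edge at 239, 335, 283 and 357. In cluster 3 the upstream edge lay at 151, 321, 307 and 355 bases and the downstream edge at 205, 391, 293 and 421. From parental 1 to UBR7KO 1, the libraries with the fewest peaks, the downstream edge in cluster 2 and the upstream edge in cluster 3 moved farther than the opposite edge.

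**Figure D2:**
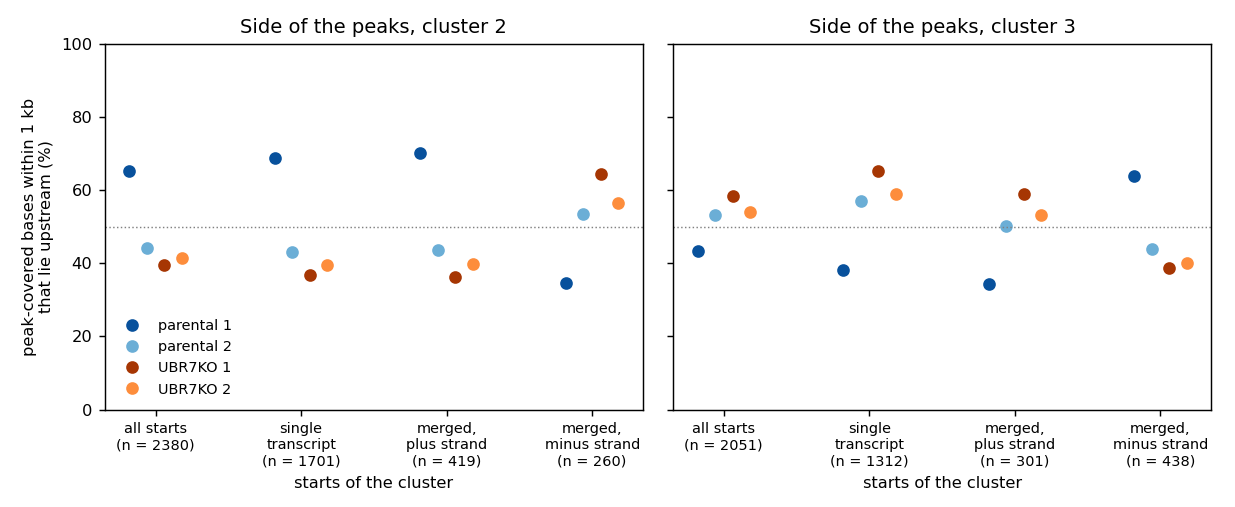
Share of peak-covered bases within 1 kb that lay upstream (percent, y axis) in each of the 4 ATAC libraries (points), for all starts of a cluster and for its single-transcript, merged plus-strand and merged minus-strand starts (x axis). The order of the libraries is the same in the first 3 groups of a cluster and is turned over at merged minus-strand starts.

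The mirror image depended on how a merged start was read. At the 1701 single-transcript starts of cluster 2 the upstream shares were 68.8%, 43.1%, 36.9% and 39.6%, and at its 419 merged plus-strand starts 70.2%, 43.7%, 36.3% and 39.7%. At its 260 merged minus-strand starts they were 34.6%, 53.5%, 64.5% and 56.4%, the pattern of cluster 3. In cluster 3 the 1312 single-transcript starts gave 38.2%, 56.9%, 65.3% and 59.1%, the 301 merged plus-strand starts 34.5%, 50.2%, 58.9% and 53.3%, and the 438 merged minus-strand starts 63.9%, 43.9%, 38.8% and 40.1%. The UBR7KO minus parental difference at merged minus-strand starts was 16.4 points in cluster 2 and -14.4 points in cluster 3, opposite in sign to the rest of each cluster. Read along the chromosome with every merged start taken as plus, all 3 groups of a cluster had the same side, and a merged minus-strand start of cluster 2 had along its gene the pattern that a single-transcript start of cluster 3 had.

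The authors also deposited, for each genotype, the regions shared by its 2 ATAC replicates, and these sets divide the bases around a start into those open in both sets, in the UBR7KO set only and in the parental set only. In cluster 2 the UBR7KO-only bases averaged 66.7 upstream and 268 downstream per start within 1 kb, while bases in both sets averaged 177 upstream and 91.5 downstream. In cluster 3 the UBR7KO-only bases averaged 208 upstream and 90.0 downstream, and bases in both sets 123 and 143. The UBR7KO-only bases thus lay mostly on the downstream side in cluster 2 and on the upstream side in cluster 3. Such bases are absent from the parental set, but they can lie in a peak of parental 2. Parental 2 alone averaged 415 covered bases downstream of cluster 2 starts, against 411 and 489 in UBR7KO 1 and UBR7KO 2. Upstream of cluster 3 starts it averaged 397, against 373 and 441. Parental-only bases were few, at 22.8 upstream and 6.16 downstream in cluster 2 and 7.87 and 24.4 in cluster 3. The parental set, which is limited by the 10507 peaks of parental 1, reached within 1 kb of 80.2% of cluster 2 and 79.2% of cluster 3 starts, and the UBR7KO set of 100% of both.

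The UBR7KO-only bases lay mostly downstream at 2035 of 2380 cluster 2 starts (85.5%), beside 45.1% of all 13119 starts with a direction. They lay mostly upstream at 1508 of 2051 cluster 3 starts (73.5%), beside 41.8% of all starts. This side comes from the ATAC signal that made the clusters and is a description of them. With merged starts read as plus, the counts of cluster 2 and cluster 3 were 2267 (95.3%) and 1896 (92.4%), beside 43.3% and 43.6% of all starts. At the merged minus-strand starts, 246 of 260 in cluster 2 lay mostly upstream and 413 of 438 in cluster 3 mostly downstream.

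**Figure D3:**
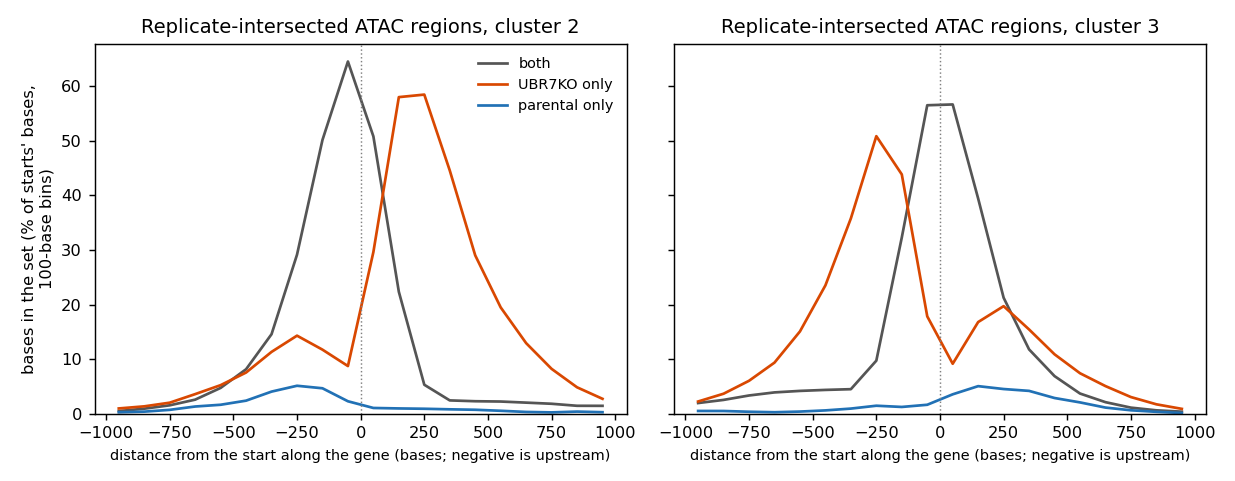
Share of bases (percent, y axis) in the replicate-shared sets by distance from the start along the gene (bases, x axis, negative upstream, bins of 100 bases), for bases in both sets, in the UBR7KO set only and in the parental set only. The UBR7KO-only bases are densest downstream of the start in cluster 2 (58.5% of bases in the bin centred at 250) and upstream in cluster 3 (50.8% in the bin centred at -250).

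Start by start, cluster 2 starts more often had more covered bases downstream in both UBR7KO libraries than in both parental libraries. The downstream side did so at 864 cluster 2 starts (36.3%) and at 314 cluster 3 starts (15.3%), beside 19.6% of all 13119 starts with a direction. The upstream side did so at 381 cluster 2 starts (16.0%) and at 651 cluster 3 starts (31.7%), beside 19.3% of all starts. The opposite order, with both UBR7KO libraries below both parental ones, occurred downstream at 21 cluster 2 starts (0.882%) and 72 cluster 3 starts (3.51%), beside 4.28% of all starts. Upstream it occurred at 124 cluster 2 starts (5.21%) and 32 cluster 3 starts (1.56%), beside 4.83% of all starts. These shares come from the signal that made the clusters and are read as a description of them.

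A few starts show the geometry without any overlap with the start. Peaks lay only upstream in all 4 libraries at 49 of 2051 cluster 3 starts and at 4 of 2380 cluster 2 starts. They lay only downstream at 42 cluster 2 starts and at 5 cluster 3 starts. The like counts over all starts are not given here, so whether these counts are particular to the clusters cannot be read. EIF4G2 of cluster 3, a translation initiation factor, had 56, 281, 511 and 447 covered bases upstream in parental 1, parental 2, UBR7KO 1 and UBR7KO 2 and 0 downstream in each library. ZNF524 of cluster 3, a zinc finger gene, had 409, 981, 635 and 915 covered bases upstream and 0 downstream, with a GFP-UBR7 peak centred at -298.5 bases. EIF4G2 had more bases in both UBR7KO libraries, whereas the groups overlapped at ZNF524. DIS3L of cluster 2, an exonuclease of the RNA exosome, had 171, 849, 614 and 805 covered bases downstream and 0 upstream, with a GFP-UBR7 peak centred 299.5 bases downstream. AIMP1 of cluster 2, a scaffold of the aminoacyl-tRNA synthetase complex, had 516, 831, 809 and 842 covered bases downstream, and both starts of GLRX2, a mitochondrial glutaredoxin, likewise had 0 upstream. Parental 2 lay inside or above the UBR7KO range at DIS3L and AIMP1.

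The few starts on the opposite side were all merged minus-strand starts. In cluster 2 they included NECTIN1 (an adhesion molecule), BCL2L1 (an inhibitor of apoptosis) and FAM221B. BCL2L1 had 366, 988, 631 and 977 covered bases upstream and 0 downstream. In cluster 3 they were MCFD2 (a partner of an ER cargo receptor), B4GALT3 (a galactosyltransferase), GPM6A, ARHGAP20 and SLC25A21 (a mitochondrial carrier). MCFD2 had 176, 705, 806 and 952 covered bases downstream and 0 upstream.

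Peaks within 1 kb in both UBR7KO libraries and in neither parental library occurred at 26 cluster 2 starts (1.09%) and 25 cluster 3 starts (1.22%), beside 1.09% of all starts with a direction, and the reverse at 0 starts of either cluster. These shares are near the background. ACTL6B, a neuronal subunit of BAF chromatin remodelling complexes whose promoter is printed above, had 19 covered bases upstream and 451 downstream in UBR7KO 1 and 0 and 301 in UBR7KO 2, with a GFP-UBR7 peak centred 117.5 bases downstream. ZNF22, a zinc finger gene, had 42 upstream and 296 downstream in UBR7KO 1 and 0 and 897 in UBR7KO 2. TIMP4, an inhibitor of matrix metalloproteinases, had 208 and 284 covered bases, all downstream. At these cluster 2 starts nearly all UBR7KO bases lay downstream of the start. CCNI2 of cluster 3, a cyclin-like gene, had 168 bases upstream in UBR7KO 1 and 337 in UBR7KO 2 and 0 downstream in both. FOXF1 of cluster 3, a forkhead transcription factor, had 918 and 198 bases upstream and 0 downstream, with a GFP-UBR7 peak centred 179 bases downstream. HOXB-AS3, a noncoding RNA of the HOXB locus with 2 adjacent starts in cluster 3, had 168 bases upstream of both in UBR7KO 1, and in UBR7KO 2 a peak covered both starts. Only 15 genes with such a start in cluster 2 and 20 in cluster 3 were tested for RNA, at median parental levels of 0.38 and 0.87 CPM per kb of exon. None was called in either direction in the UBR7KO1 pairs by limma with the date pair as a block (Benjamini-Hochberg adjusted, as described below). The UBR7KO ATAC libraries carry the code of the UBR7KO2 RNA library, so the lines may differ.

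A gene on the other strand that starts within 1 kb and points away shares its upstream side, and such head-to-head pairs link the 2 clusters. A head-to-head partner was present at 366 cluster 2 starts (15.4%) and 414 cluster 3 starts (20.2%), against 17.9% of all starts. Of the cluster 2 partners, 146 (39.9%) belonged to cluster 3, 120 to cluster 4, 81 to cluster 2 and 19 to cluster 1. Of the cluster 3 partners, 144 (34.8%) belonged to cluster 2, 106 to cluster 3, 99 to cluster 1 and 65 to cluster 4. In such a pair the bases downstream of one start lie upstream of its partner, so a mixed pair holds the same open bases in both clusters.

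Where the pair was mixed, the UBR7KO-only bases lay mostly downstream at 132 of 146 cluster 2 starts (90.4%) and mostly upstream at 135 of 144 cluster 3 starts (93.8%). Where both partners belonged to the same cluster, the counts were 41 of 81 (50.6%) and 65 of 106 (61.3%). In either kind of pair, bases downstream of one start lie upstream of its partner. The contrast between mixed and same-cluster pairs thus follows largely from this geometry and is not a separate result. Without a partner they were 1748 of 2014 (86.8%) and 1174 of 1637 (71.7%). ABCA3, a lipid transporter of cluster 2, and ABCA17P, a pseudogene of cluster 3, start 175 bases apart on chromosome 16, at 2390748 on the minus strand and 2390923 on the plus strand. ABCA3 had 481 UBR7KO-only bases downstream and 0 upstream, and the same bases lay upstream of ABCA17P. SRSF9, a splicing factor of cluster 2, and DYNLL1, a dynein light chain of cluster 3, form such a pair on chromosome 12, with 148 UBR7KO-only bases upstream and 294 downstream of SRSF9 and the reverse for DYNLL1. At MPHOSPH10 of cluster 2, a nucleolar protein, and MCEE of cluster 3, an epimerase of propionate breakdown, 49 bases apart on chromosome 2, 274 UBR7KO-only bases lay downstream of MPHOSPH10 and upstream of MCEE. These 3 pairs were chosen after their values were seen.

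GFP-UBR7 peaks were as frequent at these starts as elsewhere in the table. The ChIP peak list held 5895 peaks from 1 library, so every value below describes that library. A peak lay within 1 kb of 718 cluster 2 starts (30.1%) and 630 cluster 3 starts (30.6%), beside 29.6% of all 13176 starts. The members' shares are near this background. By authors' score, a peak strength from the peak caller, the median over starts with a peak was 72.4 in cluster 2, 72.6 in cluster 3 and 72.3 over all starts.

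The side of the GFP-UBR7 peaks differed between the clusters. These peaks were not used to make the clusters, but they covered open bases more often than other bases, as given below. Their side is therefore not independent of the ATAC signal that made the clusters. GFP-UBR7 bases lay mostly upstream at 233 of 717 cluster 2 starts with a peak and a direction (32.5%, exact Clopper-Pearson 95% interval 29.1 to 36.1) and at 287 of 627 cluster 3 starts (45.8%, 41.8 to 49.8), against 1598 of 3889 over all starts (41.1%, 39.5 to 42.7). These intervals cover counting error only, and starts that share a peak are not independent. The cluster 2 interval lies below those of cluster 3 and of all starts, and the cluster 3 and all-starts intervals overlap. The share of GFP-UBR7 bases that lay upstream was 34.7% in cluster 2, 46.3% in cluster 3 and 42.1% over all starts, and the median peak centre lay 107, 25.5 and 65 bases downstream. Among single-transcript starts the share of starts with bases mostly upstream was 31.8% in cluster 2 and 49.9% in cluster 3. Among merged minus-strand starts it was 40.5% of 74 (29.3 to 52.6) and 34.7% of 124 (26.4 to 43.7), and these intervals overlap, so that no order of the clusters could be read there.

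**Figure D4:**
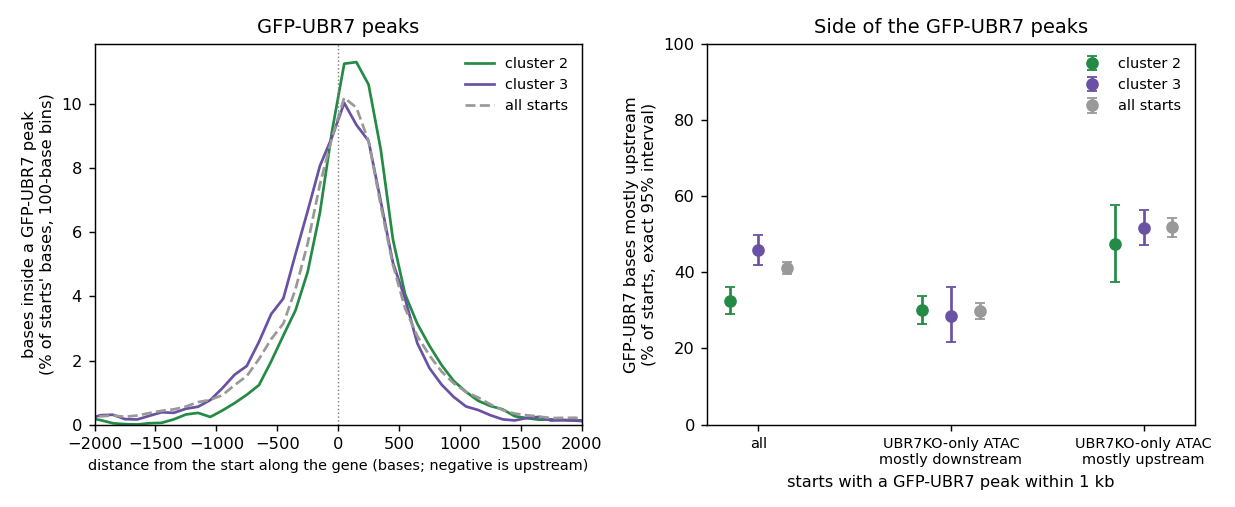
Left, share of bases inside a GFP-UBR7 peak (percent, y axis) by distance from the start along the gene (bases, x axis), which is highest at 11.3% in the bin centred at 150 in cluster 2 and at 10.0% in the bin centred at 50 in cluster 3. Right, share of starts with GFP-UBR7 bases mostly upstream (percent, points with exact 95% intervals, 1 library) for all starts with a peak and by the side of the UBR7KO-only ATAC bases, which is near 30% where those lay downstream and near 50% where they lay upstream.

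When starts were grouped by the side on which the UBR7KO-only ATAC bases lay, a grouping chosen after the data were seen, the 2 clusters gave like values. GFP-UBR7 bases lay mostly upstream at 30.1% of 618 cluster 2 starts and 28.6% of 161 cluster 3 starts where the UBR7KO-only bases lay mostly downstream, and at 29.8% of 1796 such starts in the whole table. Where the UBR7KO-only bases lay mostly upstream, they did so at 47.5% of 99 cluster 2 starts, 51.7% of 466 cluster 3 starts and 51.8% of 1669 starts in the whole table. Starts of the whole table thus gave values like those of the 2 clusters.

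Per base, GFP-UBR7 peaks covered UBR7KO-only bases nearly as often as bases open in both sets. Downstream of cluster 2 starts they covered 11.1% of UBR7KO-only bases, 12.6% of bases in both sets and 2.92% of bases in neither. Upstream of cluster 3 starts they covered 9.15%, 9.62% and 1.81%. Over all starts the downstream shares were 11.1%, 12.6% and 2.80% and the upstream shares 9.45%, 9.63% and 1.57%. The shares of the clusters were close to these, and bases in neither set were covered least throughout.

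Among single genes, MRPL40 of cluster 2, a mitochondrial ribosomal protein, had the highest score of the cluster (633.12, rank 6 of the 5895 peaks), with the peak centred at -258 bases. Its ATAC bases also lay mostly upstream, at 489, 985, 1000 and 794 bases against 17, 91, 213 and 191 downstream. SNAP47 of cluster 2, a SNARE protein, and JMJD4 of cluster 3, a JmjC-domain hydroxylase, share a peak of score 542.1 (rank 9), which lay 281.5 bases downstream of the first and 134.5 bases downstream of the second. SMARCD2 of cluster 3, a BAF complex subunit, had a score of 555.38 (rank 8) with the centre 315.5 bases downstream. CUL4A of cluster 3, the scaffold of a ubiquitin ligase, had a score of 317.0 (rank 37) with the centre at -882.5 bases, with 0, 853, 841 and 1000 ATAC bases upstream within 1 kb and 0, 0, 0 and 470 downstream. At the UBR7 start itself, a merged plus-strand start of cluster 3 at 93673401 of chromosome 14, no GFP-UBR7 peak lay within 1 kb. Its covered bases were 17, 138, 202 and 126 upstream and 334, 450, 352 and 436 downstream, so that the groups overlapped downstream and parental 2 lay between the UBR7KO libraries upstream.

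By class of gene the clusters were alike with a few exceptions among small families. A coding transcript started at 93.0% of cluster 2 and 92.5% of cluster 3 starts, against 91.5% of all starts. Symbols numbered 2250 and 1958, of which 105 had starts in both clusters (4.67% of the first and 5.36% of the second). Of 16 HOX starts in the table, 7 (43.8%) lay in cluster 2 and 2 in cluster 3, and of 18 tubulin starts 6 and 1, although members of a gene cluster can share open chromatin. Of 51 starts of DEAD and DEAH box RNA helicases, 3 lay in cluster 2 and 13 (25.5%) in cluster 3, and of 24 starts of the unfolded protein response list 7 and 0. For comparison, 18.4% of all protein-coding starts lay in cluster 2 and 15.8% in cluster 3. Of 366 zinc finger (ZNF) starts 57 and 58, of 82 cytosolic ribosomal protein starts 13 and 9, of 237 solute carrier starts 40 and 37 and of 56 small nucleolar RNA starts 0 and 4 lay in the 2 clusters. The counts of the small families have no test and carry wide counting error.

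The genes behind the starts were expressed at like levels in the 2 clusters and in every library. The RNA table held 2111 cluster 2 genes and 1803 cluster 3 genes. The median level of cluster 2 genes, in CPM per kb of exon, was 2.82, 2.45 and 2.49 in the parental libraries, 2.77 and 2.57 in the UBR7KO1 libraries and 2.46 in the UBR7KO2 library. That of cluster 3 genes was 2.71, 2.42 and 2.34, then 2.77 and 2.52, then 2.38. The medians of all 14177 genes of the table were 2.14, 1.76 and 1.71, then 2.09 and 1.86, then 1.71. Genes of both clusters lay above the table's median in each library, as did those of cluster 4 at 2.75, 2.38 and 2.40 in the parental libraries.

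No gene of either cluster was called between genotypes at an adjusted p under 0.05 when all 6 libraries were compared. Limma on log2(CPM + 1), with Benjamini-Hochberg adjustment over 13697 genes, called 0 of 2100 cluster 2 genes and 0 of 1795 cluster 3 genes in either direction, beside 0% of all tested genes. At an unadjusted p under 0.05 it gave 1 higher and 1 lower in cluster 2 and 1 higher and 3 lower in cluster 3. Libraries that share a date code deviated together (r = 0.76 and 0.74 across genes). The fit without a block leaves this out, so its 0 calls do not show that RNA was unchanged. With the date pair as a block it again called 0 in both, with 76 higher and 27 lower in cluster 2 and 65 higher and 29 lower in cluster 3 at an unadjusted p under 0.05, and DESeq2 and edgeR's quasi-likelihood test without a block on the recovered reads also called 0 genes of the clusters.

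The UBR7KO1 line could be compared with parental libraries that carry the same 2 date codes in their labels. Without a block limma called 0 of 2106 cluster 2 genes and 0 of 1799 cluster 3 genes, beside 0% of 14059 tested genes. At an unadjusted p under 0.05 this fit gave 13 higher and 9 lower in cluster 2 and 8 higher and 11 lower in cluster 3. For these unadjusted counts, too, the share over all tested genes is not given here. On the recovered reads edgeR's quasi-likelihood test without a block also called 0 in both, and DESeq2 called 0 higher and 1 lower in cluster 2 and 0 higher and 2 lower in cluster 3, beside 0.0213% higher and 0.135% lower of all tested genes. Once the 2 dates were fitted as a block, limma gave 44 higher and 22 lower calls in cluster 2 and 37 higher and 23 lower calls in cluster 3, beside 2.16% of all tested genes higher and 1.37% lower. These shares are near the background. The block leaves 1 residual degree of freedom per gene before limma pools the spread over genes. With the same block, edgeR's quasi-likelihood test called 45 higher and 40 lower in cluster 2 and 35 higher and 30 lower in cluster 3, beside 2.25% higher and 2.18% lower over all tested genes, so its more even split was that of all genes. The median log2 change was 0.04 in each cluster and 0.03 over all tested genes. By pair, the medians were 0.01, 0.07 and -0.02 in cluster 2 and 0.01, 0.06 and -0.02 in cluster 3 for the first date, the second date and the undated pair of UBR7KO2, so the libraries gave no common direction.

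The calls were also counted by the presence of a GFP-UBR7 peak and by the side with more covered ATAC bases in both UBR7KO libraries. With a GFP-UBR7 peak, 17 of 653 cluster 2 genes rose and 3 fell (limma with the date block), and without a peak 27 of 1454 rose and 19 fell. In cluster 3, 14 of 556 rose and 1 fell with a peak, and 23 of 1244 rose and 22 fell without. The share that fell was 0.46% with a peak and 1.31% without in cluster 2, and 0.18% and 1.77% in cluster 3. A gene with starts of both kinds is counted in each. Among genes whose downstream ATAC bases were higher in both UBR7KO libraries, 14 of 766 cluster 2 genes (1.83%) rose and 7 (0.91%) fell, and 5 of 289 cluster 3 genes (1.73%) rose and 5 (1.73%) fell. Among genes whose upstream ATAC bases were higher in both, 5 of 343 cluster 2 genes (1.46%) rose and 3 (0.87%) fell, and 15 of 564 cluster 3 genes (2.66%) rose and 3 (0.53%) fell. Over all tested genes 2.16% rose and 1.37% fell, and none of these differences was tested. The RNA calls came from the UBR7KO1 pairs, whereas the UBR7KO ATAC libraries carry the code of the UBR7KO2 RNA library. ATAC and RNA may therefore come from different knockout lines here.

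The largest changes in the dated pairs were as follows, each from limma with the date block and Benjamini-Hochberg adjustment, since the fit without a block called no gene. In cluster 2, PTPRM, a receptor tyrosine phosphatase, had 11.1, 12.2 and 5.46 CPM in parental cells, 1.29 and 0.863 CPM in UBR7KO1 and 8.42 CPM in UBR7KO2. It fell in the dated pairs (log2 change -2.62, SE 0.21, limma adjusted p = 4.2e-08), and the UBR7KO2 library lay within the parental range. CDKN2A, the locus of the p16 and ARF tumour suppressors with a start in each cluster, stood at 78.4, 143 and 112 CPM, then 44.3 and 57.6 CPM, then 183 CPM, and fell in the dated pairs (-1.06, SE 0.13). RPS6, a ribosomal protein gene whose reads can be shared with pseudogene copies, stood at 3378, 1974 and 1378 CPM, then 1431 and 1045 CPM, then 2142 CPM (-1.08, SE 0.14). The parental libraries of RPS6 span a wider range than the change, so its call rests on the date pairs. FOCAD (-0.93) and ELAVL2, a neuronal RNA-binding protein (-0.91), also fell.

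The rises of cluster 2 were smaller. FAM129A, a gene of the stress response, stood at 17.5, 9.34 and 4.60 CPM in parental cells, 31.2 and 24.2 CPM in UBR7KO1 and 5.47 CPM in UBR7KO2 and rose in the dated pairs (log2 change 1.04, SE 0.16, limma adjusted p = 0.000468). AK7, an adenylate kinase (0.97), CHSY3, a chondroitin synthase (0.90), QSOX1, a sulfhydryl oxidase (0.84), and AKAP10, an anchor of protein kinase A (0.84), rose as well. AKAP10 stood at 38.1, 26.1 and 35.7 CPM, then 65.4 and 49.9 CPM, then 20.7 CPM, so UBR7KO2 lay below every parental library.

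In cluster 3, ARHGAP20 stood at 6.09, 5.73 and 10.5 CPM in parental cells, 1.40 and 0.628 CPM in UBR7KO1 and 6.17 CPM in UBR7KO2 (log2 change -1.81, SE 0.21, limma adjusted p = 1.4e-05). Its start is the merged minus-strand start at which peaks lay only downstream in all 4 ATAC libraries, with 347, 647, 601 and 584 covered bases. GAS7, a growth arrest-specific gene (-1.68), HAUS6, a subunit of the augmin complex of the mitotic spindle (-1.14), and UBR7 itself (-1.10, SE 0.13, limma adjusted p = 1.84e-05) fell too. HAUS6 stood at 183, 180.5 and 128 CPM, then 77.6 and 85.8 CPM, then 161 CPM, with both UBR7KO1 libraries below all others. RORB, an orphan nuclear receptor, stood at 3.21, 3.88 and 4.50 CPM, then 6.52 and 10.8 CPM, then 1.74 CPM and rose in the dated pairs (1.05, SE 0.20). FEZ1, a kinesin adaptor (0.86), LTBP2 (0.76), PCDH10, a protocadherin (0.73), and SEMA3F, a secreted guidance factor (0.73), rose as well.

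**Figure D5:**
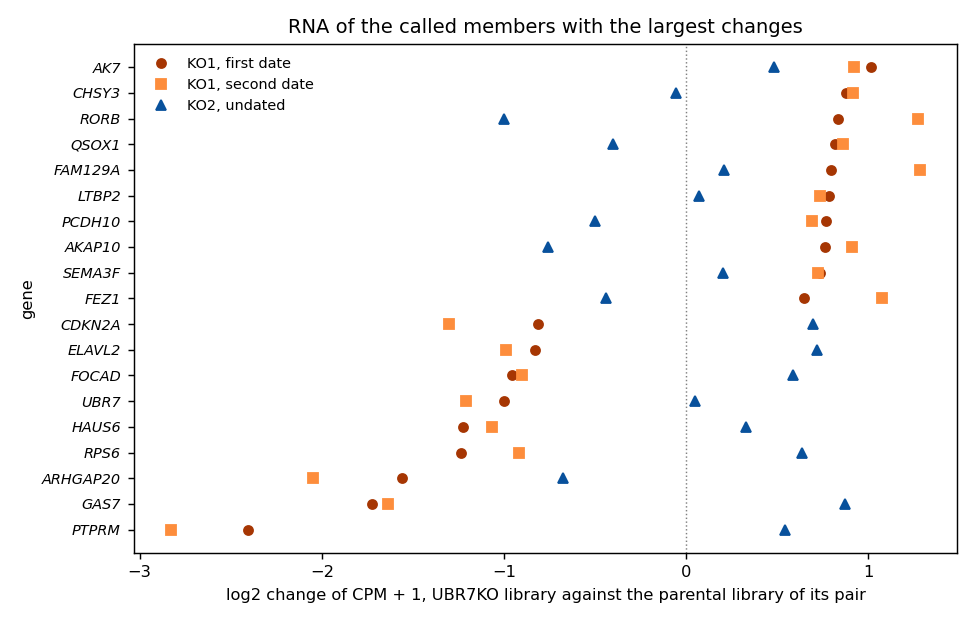
Change in log2(CPM + 1) (x axis) of the UBR7KO library against the parental library of its pair for the 19 named genes (y axis), with a marker for each of the 2 dated UBR7KO1 pairs and the undated UBR7KO2 pair. The dated pairs lie together on one side of 0, and the undated pair lies on the other side for 14 of the 19 genes.

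The calls were unevenly spread over the chromosomes, in the clusters as in the whole table. Of the genes that fell in the dated pairs, 10 of 22 in cluster 2 and 7 of 23 in cluster 3 lie on chromosome 9, beside 54 of all 193 genes that fell (28.0%) and 4.08% of all tested genes. Of those that rose, 16 of 44 and 11 of 37 lie on chromosome 1, beside 95 of all 303 (31.4%) and 10.1% of all tested genes. A stretch of chromosome 9 from 19053141 to 23826335 was chosen after the values were seen. Its bounds are the outermost of 5 genes named above for their fall, RPS6, CDKN2A, FOCAD, ELAVL2 and HAUS6. They are also the 5 tested genes of the clusters in it, so their fall was fixed by this choice. Of all 15 tested genes in it, 12 fell, these 5 included, with a median log2 change of -0.91 over the 15. In the undated pair the 5 genes were all higher in UBR7KO2, with a median of 0.64. On chromosome 9 before the stretch 1 of 46 tested genes fell, and after it 41 of 513.

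The gene lists gave few calls in either cluster, all by limma with the date block in the UBR7KO1 pairs, in which 2.16% of all tested genes rose and 1.37% fell. At these list sizes a single call exceeds such shares. Of the 7 cluster 2 genes of the unfolded protein response, which raises folding capacity in the ER, CALR and HSPA5 rose and 0 fell. HSPA5 stood at 109, 183 and 229.5 CPM, then 137 and 285 CPM, then 221 CPM, so its groups overlapped and the rise is within dates (log2 change 0.48, SE 0.12, limma adjusted p = 0.0297). The dated groups of CALR also overlapped, at 346 and 751 CPM in parental and 536 and 1049 CPM in UBR7KO1 libraries. The list had a median log2 change of 0.26 in cluster 2 and no member in cluster 3. Of the p53 targets, 2 of 6 in cluster 2 fell, AEN, a nuclease, and DDB2, a sensor of UV damage, and 0 of 3 in cluster 3 did. AEN stood at 109, 52.1 and 66.1 CPM, then 51.5 and 38.4 CPM, then 76.0 CPM. HEK293T cells carry large T antigen, which binds p53.

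Of the cholesterol synthesis genes, 1 of 4 in cluster 2 (MSMO1) and 1 of 7 in cluster 3 (PMVK) rose, with list medians of 0.43 and 0.24. MSMO1 stood at 26.6, 26.9 and 38.3 CPM, then 52.7 and 35.2 CPM, then 55.6 CPM, with UBR7KO above its parental library in each of the 3 pairs. CENPF of the mitosis genes (1 of 5) and LAMC1 of the extracellular matrix genes (1 of 2) rose in cluster 2. HK1 of the glycolysis genes (1 of 6) rose in cluster 3, and ID2 of the BMP pathway (1 of 4) fell in cluster 3. The dated groups overlapped for CENPF, HK1 and ID2, so these changes are within dates. LAMC1 stood at 234, 288 and 282 CPM in parental cells, 317 and 430 CPM in UBR7KO1 and 178 CPM in UBR7KO2. UBR7KO2 thus lay below every parental library for LAMC1. No member was called among the histone chaperones (ANP32E, ASF1A and NAP1L4 in cluster 2, NASP and RBBP7 in cluster 3), the Polycomb genes (6 and 7), the DNA replication genes (7 and 6), the spliceosome genes (10 and 5) or the RNA polymerase II and TFIID genes (6 and 6). Of the UBR box family, UBR7 fell, and UBR2 and UBR4 of cluster 2 were not called. The members of the other lists (H3K4 and H3K9 methylation, replacement histone variants, the integrated stress response, the proteasome, the Wnt pathway, immediate early genes and neuronal genes) were not called either.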

How the data were processed

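ATAC peaks were broad peaks whose last column holds, per the file format, a −log10 q-value, deposited per library by the authors (MACS2 is among the tools in the submitters' processing notes, with no role given); replicate-intersected sets were deposited with a score column. GFP-UBR7 peaks carry a deposited score. RNA values are CPM deposited by the authors beside log2 fold changes and p-values of their own, which were not used for tests; of tools for reads, TopHat2 2.1.0 and HTSeq 0.6.1 are listed in the notes of the submitters, with edgeR. Start coordinates match the GRCh37 type, per the labels' list of builds. Read depth of the ATAC and ChIP libraries is not given in the sources used here. The table of starts carries strand and deepTools group; its score was not used.

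Peaks were counted by base within 1000 bases of a start, along the gene. RNA was tested with limma 3.58.1 (trend, robust) on log2(CPM + 1) for genes above 1 CPM in at least 3 of the 6, or 2 of the 4 dated, libraries, two-sided, Benjamini-Hochberg adjusted over all tested genes, threshold 0.05. CPM steps gave whole reads for 100% of values within 0.001 reads, at 22153291 to 29811908 reads per library, used for edgeR 4.0.16 and DESeq2 1.42.0 (R 4.3.3; Python 3.11.15, pandas 2.3.3). Libraries that share a date code in the labels deviated together (r = 0.76 and 0.74 across genes), so date pairs served as the block. The parental and UBR7KO2 libraries without a date code were taken as a further pair (r = 0.63), a pairing that the labels do not state. The design without a block is the main one. Scripts were tested on simulated data.

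Named members were, per cluster, the 5 largest rises and falls among called genes of the dated pairs whose groups do not overlap; the 5 highest GFP-UBR7 scores; the 5 starts with the strongest weakest peak for peaks only upstream, only downstream, or in both libraries of a genotype and neither of the other; up to 3 members of each of 21 gene lists; and UBR7. No gene was called without the block, so the RNA names come from the block fit. Members on chromosome 8 are not described, and 1 named member is not reported here. The members, lists and rules were chosen with earlier results of these data known. Alternatives covered the window, peak strength, left-out libraries, the block, pseudocount, filter, scaling and count tests; those on the strand of merged starts and edgeR with a block, and the grouping by side of UBR7KO-only bases, were added after seeing the data. The 6 CUT&RUN libraries were not analysed here.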

Additional observations from a re-analysis of the deposited data

Results flagged for a closer look

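In 14 of the 19 genes named for their RNA change, the change in both dated UBR7KO1 pairs was opposite in sign to that in the undated UBR7KO2 pair. The difference between the lines was not tested, since UBR7KO2 has 1 library. The log2 change of the undated pair minus the mean of the dated pairs was 3.16 for PTPRM, 2.55 for GAS7, 1.75 for CDKN2A, 1.71 for RPS6, 1.62 for ELAVL2, 1.52 for FOCAD, 1.48 for HAUS6 and 1.16 for UBR7, the genes that fell in the dated pairs. It was -2.06 for RORB, -1.60 for AKAP10, -1.30 for FEZ1, -1.24 for QSOX1, -1.23 for PCDH10 and -0.95 for CHSY3, the genes that rose in them. These genes were named for their change in the dated pairs, and the like share over all tested genes is not given here. RPS6, CDKN2A, FOCAD, ELAVL2 and HAUS6 lie in the stretch of chromosome 9 described above. Only 1 of the 15 tested genes of that stretch was lower in UBR7KO2 than in the undated parental library. The genes of the stretch may therefore not be separate cases. The other named genes, AK7, ARHGAP20, FAM129A, LTBP2 and SEMA3F, moved the same way in all 3 pairs.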

How the results depend on the processing

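The difference in upstream share of ATAC-covered bases (UBR7KO minus parental, percentage points) kept its sign in cluster 2 and cluster 3 with windows of 500 bases and 2 kb, with stronger peaks, by peak centre and with any library left out, the latter between -24.7 and -3.83 in cluster 2 and between 3.14 and 12.8 in cluster 3. As a replicate block, the difference within replicate number 1 was -25.6 and 15.0 and within replicate number 2 -2.93 and 0.95; the ATAC numbers are only numbers, with like-numbered deviations correlated at 0.08 to 0.17 across starts. Cluster 3 gave 14.5 with starts without a strand read as plus, 14.6 at single-transcript starts and 13.8 at merged plus-strand starts. At merged minus-strand starts the sign turned, to 16.4 in cluster 2 and -14.4 in cluster 3. The GFP-UBR7 difference between clusters (13.3 points) was -5.86 there, from 74 and 124 starts whose shares have overlapping exact intervals. No order of the clusters could be read from these starts alone, and the change from 13.3 to -5.86 was not tested. These strand settings were chosen after seeing the data.

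Counts of called genes in the dated pairs, 0 without a block, were 44 higher and 22 lower (cluster 2) and 37 and 23 (cluster 3) with the date pair as a replicate block, and 45 and 40, and 35 and 30, by edgeR with that block, added after seeing the data. DESeq2 called 1 and 2 lower. Leaving out a library gave 0 to 2 lower in cluster 2 (2 without parental 1, 1 each without parental 2 and without UBR7KO1 replicate 1) and 0 to 1 in cluster 3 (1 without parental 1), the lone library of an arm being assumed to vary like the others. The 6-library counts stayed at 0 under the alternatives run. The numbers of starts with peaks on a single side in all 4 libraries fell to between 2 and 28 within 500 bases and to 0 with peaks of −log10 q of at least 3. Parental 1, with 10507 peaks, limits every ATAC comparison, ATAC has 2 libraries a group and the GFP-UBR7 peaks come from 1 library.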
